A study of Mus musculus with 11 samples.

Results

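The genes described here are 9 named genes of nephron segment patterning and of the loop of Henle and distal tubule. They were chosen by name, with earlier results of these data known. They are the Iroquois homeobox genes Irx1, Irx2, Irx3 and Irx5, the POU factor Pou3f3, the homeobox gene Emx1, the urinary protein gene Umod and the cotransporter genes Slc12a1 and Slc12a3. Of the 45101 probe sets (groups of short probes that read a transcript) on each array, 14 were annotated to these genes alone, and 9 of the 14 passed a filter on dim probe sets. Of the 13614 genes tested, 8 were members, since neither probe set of Slc12a3 passed. Expression was measured in wild-type CD-1 mice, an outbred stock, at E15.5 (Theiler stage 23) by laser capture microdissection, which cuts chosen structures out of tissue sections. The 11 one-colour Affymetrix arrays were 3 of early proximal tubule (EPT in the plots), 3 of urothelium (URO), 2 of cortical collecting duct (CCD) and 3 of ureteral smooth muscle (USM). Urothelium is the epithelium that lines the ureter. Each array read 1 pool of about 50 sections from 5 kidneys after 2 rounds of RNA amplification, and no group had a treatment or a mutation. None of the 4 labelled compartments was the loop of Henle or the distal tubule.

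The nephron forms from a vesicle that bends into an S-shaped body, and its middle and distal parts later become the loop of Henle and the distal convoluted tubule. Iroquois factors take part in specifying intermediate tubule segments in frog and mouse kidneys, and in mice Pou3f3 is required for the loop of Henle and distal tubule to form. Slc12a1 encodes the sodium, potassium and chloride cotransporter of the thick ascending limb, Slc12a3 the sodium and chloride cotransporter of the distal convoluted tubule, and Umod the protein uromodulin, which thick limb cells secrete into urine.

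All levels are log2(signal + 55), in which the added constant shrinks the differences of dim genes, and levels of different probe sets are not compared with each other. The deposited values used here carry no detection calls, so a dim value cannot be told from background. A gene was called where limma's Benjamini-Hochberg adjusted p over the 13614 genes was under 0.05 and the log2 fold change was at least 1 in size. The p-values measure the spread between pools, because nothing states that pools came from separate animals, and the number of arrays limits their precision. In such bulk samples fewer cells of a type and less RNA per cell cannot be told apart. Titles or source names also carry a date-like part of unstated meaning, by which the arrays form 4 label batches. No label batch holds urothelium together with proximal tubule or collecting duct. As a sign of RNA quality, the ratio of the 3′ to the 5′ Gapdh control probe sets was 55.3 in urothelium replicate 2, against 6.79 to 29.7 in the other 10 arrays. The actin ratio did not set this array apart, at 5.43 in a range of 5.07 to 13.5.

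The labelled tissues carried most of their defining genes. The summed signal of 8 proximal tubule markers was 128000 to 204000 in proximal tubule arrays, against 2700 to 12000 in urothelium, 3710 to 8820 in collecting duct and 1260 to 2060 in smooth muscle. All 8 lay above the array median in every proximal tubule array. Of 9 collecting duct markers 8 lay above it in both collecting duct arrays, the exception being Hoxb7, and Aqp2 reached 10.40 and 9.84 there, against 7.93 to 9.53 elsewhere. Of 7 urothelial markers 6 lay above the median in every urothelium array, the exception being Upk1a, and of 7 smooth muscle markers 6 or 7 did in muscle arrays. Such counts separate tissues less well than sums do. In urothelium 6 to 8 of the collecting duct markers lay above the median, and in muscle 4 to 5 of the urothelial markers. The collecting duct markers summed to 53300 to 68200 in collecting duct, against 21900 to 38900 in urothelium. The urothelial markers summed to 36800 to 103000 in urothelium, against at most 13500 elsewhere. The muscle markers also summed to 68700, 40500 and 13300 in urothelium replicates 1, 2 and 3, against 3030 to 6320 in proximal tubule and 3550 and 4010 in collecting duct.

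Of the 8 members 3 were called higher in proximal tubule and 3 lower in smooth muscle. Against the mean of the other 3 compartments, the members called higher in proximal tubule were Irx3, Pou3f3 and Emx1, and 0 were called lower, where 9.53% of all genes tested were called higher and 6.41% lower. The estimate was positive for all 8, from 0.11 for Slc12a1 to 2.47 for Irx3, with a median log2 fold change of 1.18 over the members and 0.05 over all genes. In smooth muscle Pou3f3, Irx1 and Irx3 were called lower and 0 members higher, where 9.12% of all genes were called lower and 6.05% higher, and the median was -1.32 over the members and -0.07 over all genes. With label batch as a fixed block 0 members were called in proximal tubule and 1, Pou3f3, in smooth muscle. In collecting duct Pou3f3 alone was called, as higher, where 1.42% of all genes were called higher. In urothelium limma called 0 of 8 members in either direction, against 2.37% of all genes, and 2 of the 8 had an unadjusted p under 0.05. Between urothelium and collecting duct limma called 0 members, against 0.257% of all genes, and 0 had an unadjusted p under 0.05.

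**Figure D1:**
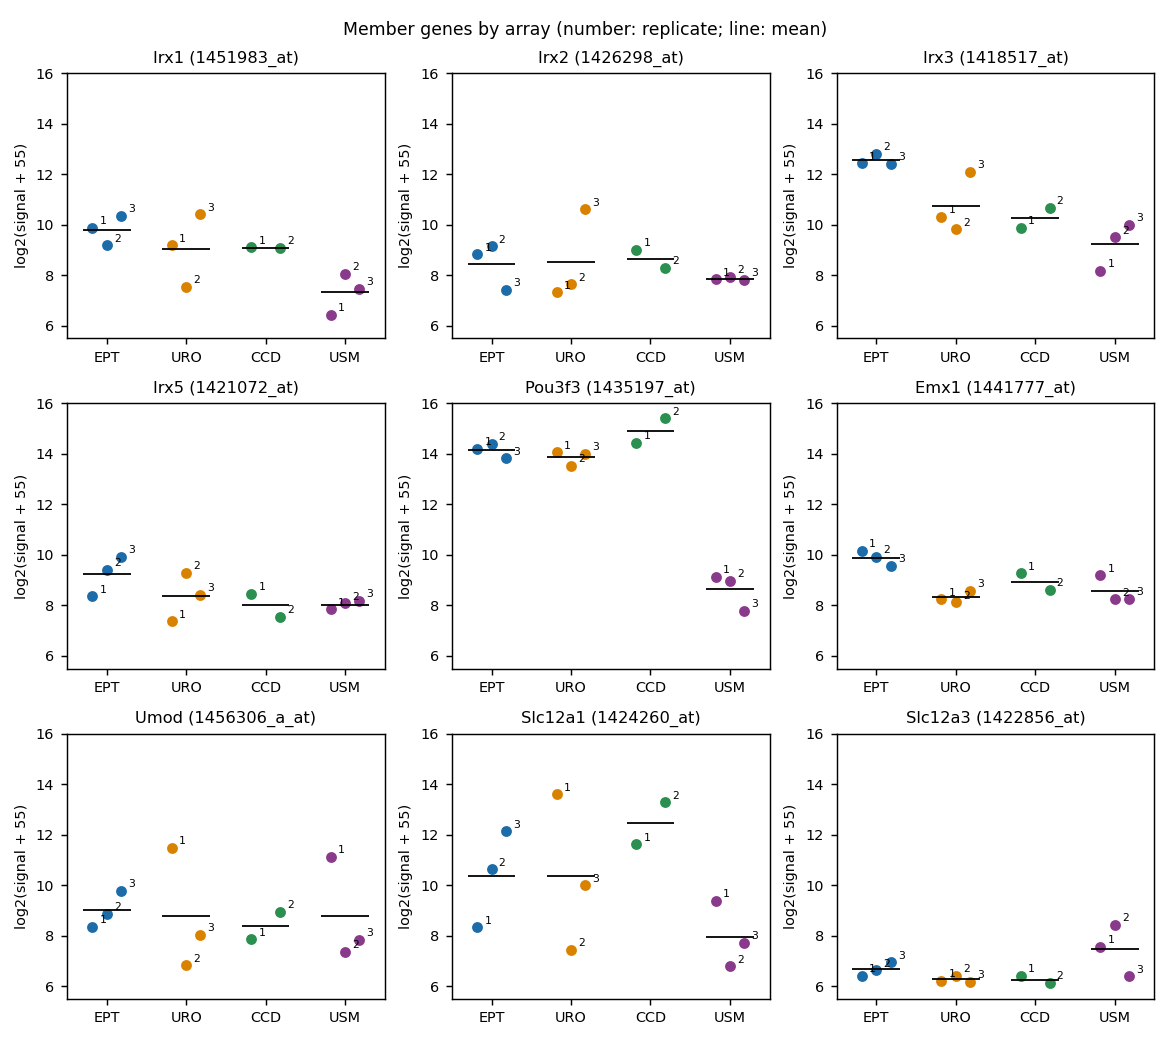
Level of each member by array. The vertical axis is log2(signal + 55) on the same range in all 9 panels, each point is an array with its replicate number, and the line is the compartment mean; Pou3f3 lies at 13.54 or above in every epithelial array and at 9.14 or below in smooth muscle, while Slc12a1 and Umod spread widely within compartments.

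**Figure D2:**
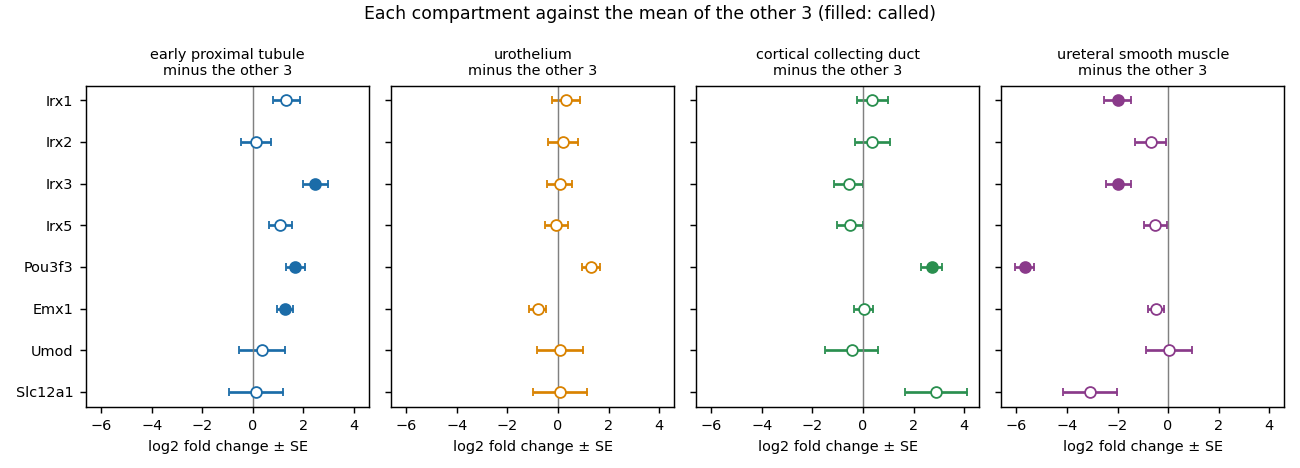
Log2 fold change of the 8 tested members in each compartment against the mean of the other 3. Points are limma estimates, bars are standard errors, and filled points passed the call; the widest bars belong to Umod and Slc12a1, and the largest difference is that of Pou3f3 in smooth muscle (-5.67).

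Pou3f3 separated the 3 epithelia from smooth muscle. The POU factor had log2 levels of 9.14, 8.98 and 7.78 in smooth muscle, against 14.21, 14.39 and 13.83 in proximal tubule, 14.06, 13.54 and 14 in urothelium and 14.44 and 15.41 in collecting duct. Every muscle array lay below every epithelial array, with deposited signals of 165 to 510 in muscle and 11800 to 43400 in the epithelia. The log2 fold change in smooth muscle against the mean of the others was -5.67 ± 0.37 (SE, n = 3 against 8), or 51.1-fold lower (limma adjusted p = 1.98e-06). The call held under all 23 alternatives, with label batch as a block included, and the log2 fold change ran from -5.93 to -5.24 over them.

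Each epithelium also passed against muscle alone. Pou3f3 was higher by 5.51 ± 0.44 in proximal tubule than in muscle (limma adjusted p = 3.94e-06), where 12.3% of all genes were called higher. It was higher by 5.23 ± 0.44 in urothelium than in muscle (limma adjusted p = 2.99e-05), where 5.03% were. It was higher by 6.29 ± 0.50 in collecting duct than in muscle (limma adjusted p = 2.52e-05), where 4.91% were. These 3 comparisons share the muscle arrays. Within label batches the differences had the same sign, with 5.23 between proximal tubule and muscle and 5.46 between collecting duct and muscle in batch 4, and 5.98 and 4.92 between urothelium and muscle in batches 1 and 2.

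No pair of epithelia passed the test for Pou3f3, although both collecting duct arrays lay above every proximal tubule and urothelium array. Proximal tubule averaged 14.14 ± 0.28 (SD, n = 3), urothelium 13.87 ± 0.29 (n = 3) and collecting duct 14.92 ± 0.68 (n = 2). Proximal tubule differed from collecting duct by -0.78 (limma adjusted p = 0.459), with a 95% confidence interval from -1.85 to 0.29. Urothelium differed from collecting duct by -1.06 (limma adjusted p = 0.42), with an interval from -2.13 to 0.01. Proximal tubule differed from urothelium by 0.28 (limma adjusted p = 0.743), with an interval from -0.68 to 1.24, and with label batch as a block this difference turned to -0.60. The calls against the mean of the other 3 therefore include the low muscle level on one side. They were 2.71 ± 0.43 in collecting duct (limma adjusted p = 0.00647) and 1.67 ± 0.37 in proximal tubule (limma adjusted p = 0.00769), and urothelium missed with 1.30 ± 0.37 (limma adjusted p = 0.091). The collecting duct call was lost without replicate 1 or replicate 2 of the collecting duct (3.19 and 2.22, limma adjusted p = 0.0802 and 0.126). The proximal tubule call was lost without proximal tubule replicate 2 (1.55, limma adjusted p = 0.0508). With label batch as a block these calls were lost too (2.28 and 1.16, limma adjusted p = 0.213 and 0.358).

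The second Pou3f3 probe set was dim, at 5.90 to 8.87, above the array median in 1 of 11 arrays, and did not pass the filter. Its muscle arrays, at 6.09 to 7.03, overlapped with those of the epithelia, so the pattern of Pou3f3 is that of its brighter probe set. A further probe set listing Pou3f3 together with another gene was left out.

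The promoters of Pou3f3 and Irx3 are shown because these factors gave the largest called differences among the members. Each is the 250 bases before the RefSeq transcription start in GRCm38.p6, printed 5′ to 3′ towards the start. Capitals mark matches, on either strand, to the CCAAT box (CCAAT) and to the core of the Notch effector RBPJ's site (TGGGAA).
Pou3f3, chr1:42695518-42695767, plus strand: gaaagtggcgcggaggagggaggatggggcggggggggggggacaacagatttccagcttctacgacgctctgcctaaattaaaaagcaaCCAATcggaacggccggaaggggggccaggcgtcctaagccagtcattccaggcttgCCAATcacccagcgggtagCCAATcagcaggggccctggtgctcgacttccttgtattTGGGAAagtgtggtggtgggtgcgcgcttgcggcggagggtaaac
Irx3, chr8:91801655-91801904, minus strand: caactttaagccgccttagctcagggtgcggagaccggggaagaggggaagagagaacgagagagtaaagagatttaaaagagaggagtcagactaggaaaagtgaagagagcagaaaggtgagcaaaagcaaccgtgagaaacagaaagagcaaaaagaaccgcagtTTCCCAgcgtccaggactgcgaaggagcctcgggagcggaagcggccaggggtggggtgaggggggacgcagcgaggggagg
The Pou3f3 window held 3 CCAAT boxes, whose first bases lie 160, 103 and 84 bases before the start, and 1 TGGGAA at 45 bases. The Irx3 window held 1 TGGGAA on the opposite strand, at 82 bases, and no CCAAT. Over 32851 mouse promoter windows of the same length, 33.8% held a CCAAT box, 2.79% held 3 or more, and 21.6% held TGGGAA. The TATA box (TATAAA), the octamer of POU factors (ATTTGCAT) and the HNF1 half-site (GTTAAT) were searched as well on both strands, occur in 12.4%, 1.6% and 6.43% of windows, and were not in either of these. No match overlapped another. A match describes letters only.

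Irx3 had its highest levels in proximal tubule. This Iroquois gene measured 12.43, 12.82 and 12.41 in proximal tubule, against 10.31, 9.82 and 12.09 in urothelium, 9.89 and 10.66 in collecting duct and 8.17, 9.50 and 10 in smooth muscle. All 3 proximal tubule arrays lay above the other 8, and urothelium replicate 3 came nearest to them. The log2 fold change in proximal tubule was 2.47 ± 0.50 (SE, n = 3 against 8), or 5.56-fold (limma adjusted p = 0.00414), and it ran from 2.09 to 2.70 over 23 alternatives. The call held in 22 of them and was lost with label batch as a block (2.09, limma adjusted p = 0.201). Within batches proximal tubule exceeded collecting duct by 1.95 and 2.54 and muscle by 2.93.

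Of the pairs, Irx3 was called between proximal tubule and muscle alone, with a difference of 3.33 ± 0.60 (limma adjusted p = 0.00136; 0.137 with label batch as a block). It differed by 2.28 ± 0.67 between proximal tubule and collecting duct (limma adjusted p = 0.0657), a pair in which limma called 0 members and 5.84% of all genes either way, and 1 member had an unadjusted p under 0.05. It differed by 1.81 ± 0.60 between proximal tubule and urothelium (limma adjusted p = 0.0674), where Emx1 was the only member called and 6.44% of all genes were called higher. Without urothelium replicate 3 these became 2.28 and 2.49 (limma adjusted p = 0.0267 and 0.0112). Without urothelium replicate 2 the collecting duct pair passed (limma adjusted p = 0.0492), and without smooth muscle replicate 1 both pairs passed (limma adjusted p = 0.0454 and 0.0477). In smooth muscle Irx3 was lower than the mean of the others by a log2 fold change of -1.97 ± 0.50 (limma adjusted p = 0.0157), with arrays that overlap with those of urothelium and collecting duct. That call was lost without smooth muscle replicate 1 (-1.44, limma adjusted p = 0.113), without the 2 arrays of label batch 2 (-1.51, limma adjusted p = 0.113) and with label batch as a block (-1.60, limma adjusted p = 0.178).

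Irx1 was lowest in smooth muscle. Its levels were 6.43, 8.06 and 7.46 in smooth muscle, against 9.87, 9.19 and 10.36 in proximal tubule, 9.19, 7.55 and 10.42 in urothelium and 9.10 and 9.08 in collecting duct. The muscle arrays overlapped with urothelium replicate 2 and lay below all other epithelial arrays. The log2 fold change in muscle was -2.00 ± 0.54 (SE, n = 3 against 8; limma adjusted p = 0.0214). It was lost without smooth muscle replicate 1 or 3 (-1.56 and -2.07, limma adjusted p = 0.133 and 0.0605), without the arrays of label batch 2 (-1.54, limma adjusted p = 0.171) and with label batch as a block (-1.64, limma adjusted p = 0.254).

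In proximal tubule Irx1 exceeded muscle by 2.49 ± 0.64 (limma adjusted p = 0.0142), with arrays that do not overlap. This pair lost the call without proximal tubule replicate 3 (2.21, limma adjusted p = 0.0605), without smooth muscle replicate 1 (2.05, limma adjusted p = 0.0639), without the arrays of label batch 2 (2.05, limma adjusted p = 0.0777) and with label batch as a block (1.79, limma adjusted p = 0.473). Against the mean of the other 3, Irx1 in proximal tubule differed by 1.32 ± 0.54 and was not called (limma adjusted p = 0.115). It passed without urothelium replicate 3 (1.55, limma adjusted p = 0.0392). Urothelium and collecting duct exceeded muscle by 1.74 ± 0.64 and 1.78 ± 0.72, also not called (limma adjusted p = 0.134 and 0.173), and the urothelium pair passed without urothelium replicate 2 (2.49, limma adjusted p = 0.0205).

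Irx2 and Irx5 were not called in any comparison. Irx2, which lies near Irx1 on chromosome 13, measured 8.83, 9.14 and 7.42 in proximal tubule, against 7.32, 7.64 and 10.61 in urothelium, 9.0 and 8.30 in collecting duct and 7.84, 7.94 and 7.81 in smooth muscle. Its highest value was urothelium replicate 3, and the compartments overlap. The proximal tubule difference was 0.12 ± 0.61 (limma adjusted p = 0.925), with a 95% confidence interval from -1.19 to 1.42.

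Irx5, on chromosome 8 like Irx3, measured 8.36, 9.40 and 9.93 in proximal tubule, against 7.37, 9.30 and 8.43 in urothelium, 8.46 and 7.56 in collecting duct and 7.84, 8.08 and 8.18 in smooth muscle. Proximal tubule held the 2 highest values, and its lowest array overlapped with urothelium and collecting duct. The difference was 1.09 ± 0.44 (limma adjusted p = 0.115), with a 95% confidence interval from 0.14 to 2.05. Between members of the family the likeness over the 11 arrays was uneven, with a Pearson r of 0.849 for Irx1 and Irx3, 0.523 for Irx3 and Irx5, 0.478 for Irx1 and Irx2 and 0.0554 for Irx2 and Irx5. These correlations describe arrays that share compartments and were not tested.

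Urothelium replicate 3 was the highest urothelium array for Irx1, Irx2 and Irx3, and some genes of the forming nephron, picked after their values were seen, were high in it as well. Lhx1, a transcription factor of the renal vesicle, measured 11.55 in replicate 3, against 6.04 and 6.0 in replicates 1 and 2. The Notch ligand gene Dll1 measured 12.25 in replicate 3, against 9.48 and 9.17, and the cadherin gene Cdh6 measured 12.79, against 10.06 and 7.74. In contrast Wnt4 measured 12.64 in replicate 3, against 12.56 and 12.74, and the Notch ligand gene Jag1 14.23, against 14.1 and 13.66. The summed signal of 6 renal vesicle and S-shaped body markers was 58200 in replicate 3, against 42300 and 32300 in replicates 1 and 2. The same sum was 40700 to 61500 in proximal tubule, 35400 to 36400 in collecting duct and 35700 to 50200 in muscle. Some other marker sums were highest among urothelium arrays in replicate 3 too, with 12800 for 4 podocyte markers, against 4690 and 2490, and 5180 for 5 nephron progenitor markers, against 1610 and 1360. For 6 endothelial markers the sum was 6080 in replicate 3, against 3990 and 1130, and for 5 leukocyte markers 3160, against 2980 and 1090. Single markers differed, with podocyte Synpo at 10.73, against 10.74 and 10.67, and endothelial Flt1 at 7.24, against 9.29 and 6.93. Sums not highest in replicate 3 were those of interstitial (110000, against 130000 and 68700), proximal tubule (9360, against 12000 and 2700) and collecting duct markers (25600, against 21900 and 38900). Those of urothelial and muscle markers were not highest there either. The part of any of these cells in the Irx values was not tested.

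**Figure D3:**
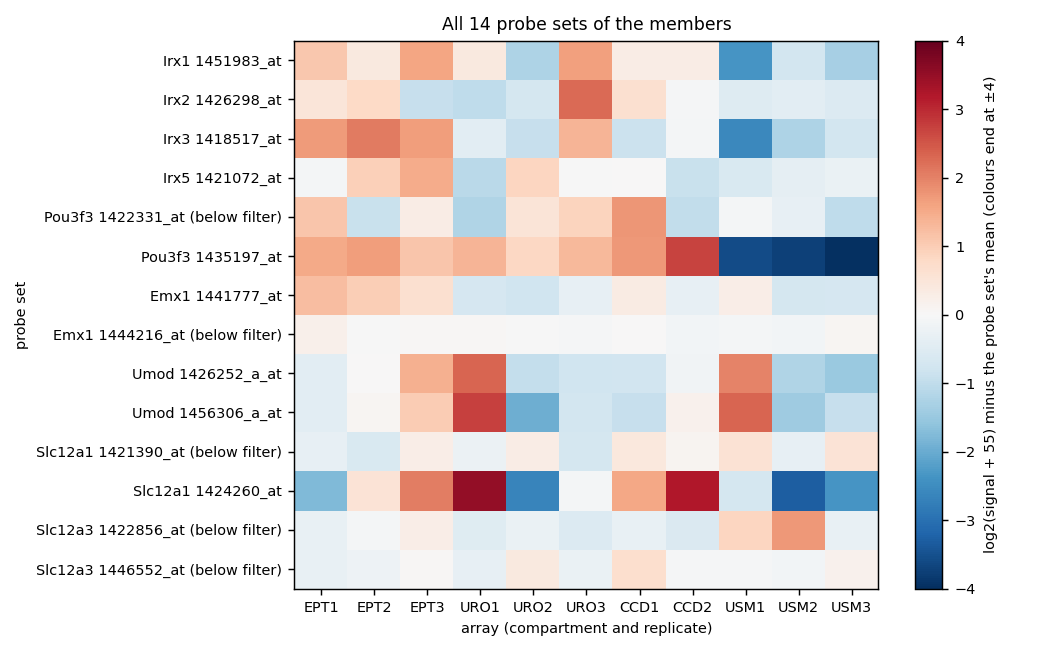
All 14 probe sets of the members across the 11 arrays. Colours show log2(signal + 55) minus the probe set's mean over the arrays, with the scale ending at 4 in either direction; the 2 Umod rows share their bright arrays, while the second rows of Pou3f3, Emx1 and Slc12a1 do not follow the first.

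Emx1 had its highest levels in proximal tubule. This homeobox gene, best known from the cerebral cortex, measured 10.17, 9.92 and 9.57 in proximal tubule, against 8.25, 8.13 and 8.59 in urothelium, 9.27 and 8.61 in collecting duct and 9.20, 8.24 and 8.27 in smooth muscle. The 3 proximal tubule arrays lay above the other 8. The log2 fold change was 1.27 ± 0.33 (SE, n = 3 against 8; limma adjusted p = 0.0196). It was lost without proximal tubule replicate 1 or 2 (1.13 and 1.26, limma adjusted p = 0.088 and 0.0798) and with label batch as a block, where the estimate was larger (1.80, limma adjusted p = 0.0994).

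Among the pairs Emx1 passed between proximal tubule and urothelium (1.56 ± 0.40, limma adjusted p = 0.0224) and between proximal tubule and muscle (1.32 ± 0.40, limma adjusted p = 0.0323). The collecting duct pair differed by 0.94 and was not called (limma adjusted p = 0.289), with differences of 1.13 and 0.90 within batches 3 and 4. The urothelium call was lost without proximal tubule replicate 1 or 2 or urothelium replicate 1 or 2 (1.42 to 1.55, limma adjusted p = 0.0657 to 0.0799) and without the arrays of label batch 2 (1.52, limma adjusted p = 0.0528). The muscle call was lost without proximal tubule replicate 1 or 2 or smooth muscle replicate 2 or 3 (1.15 to 1.30, limma adjusted p = 0.0878 to 0.108). It also missed after quantile normalization, with trend and robust options and with every probe set fitted (limma adjusted p = 0.0601, 0.0542 and 0.0559). With label batch as a block both were lost (2.36 and 2.00, limma adjusted p = 0.302 and 0.113). The second Emx1 probe set stayed at 6.02 to 6.36 on all arrays and above the array median on none of them.

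**Figure D4:**
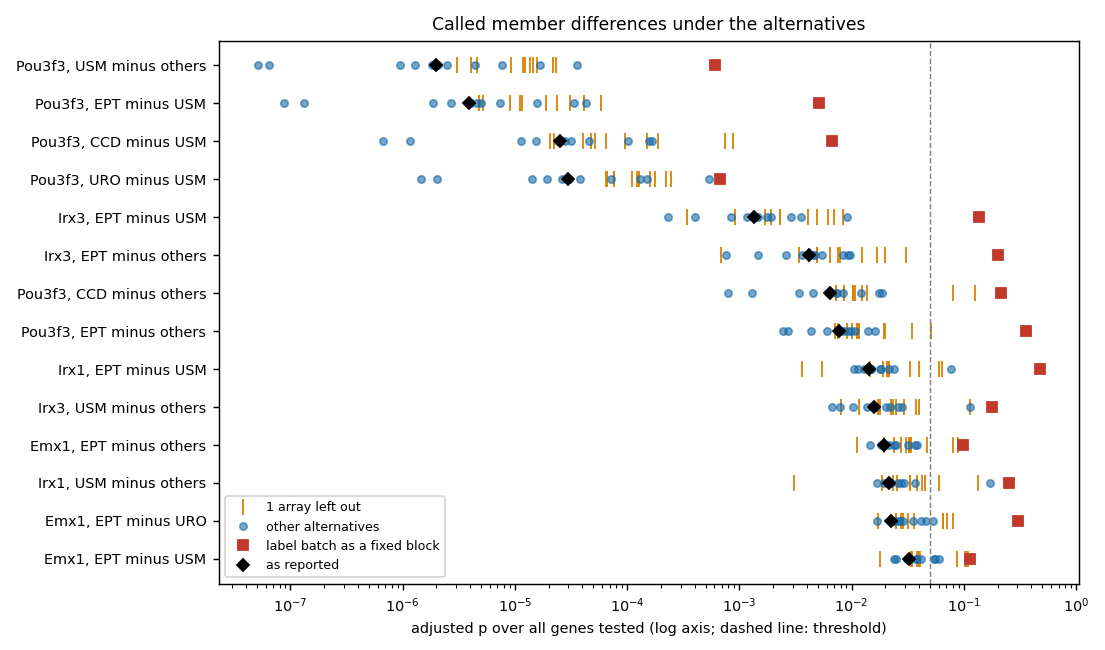
Adjusted p of the 14 called member differences under the alternative settings. The horizontal axis is the limma adjusted p over all genes tested, on a log scale, with a dashed line at 0.05; diamonds are the values as reported, squares the fit with label batch as a fixed block, and the 4 Pou3f3 differences against smooth muscle keep every mark left of the line.

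Slc12a1 varied more within compartments than between most of them. The thick limb cotransporter gene measured 8.33, 10.63 and 12.13 in proximal tubule, against 13.60, 7.45 and 10 in urothelium, 11.62 and 13.28 in collecting duct and 9.37, 6.79 and 7.72 in smooth muscle. Both collecting duct arrays were high, muscle was low, and urothelium held both a very high and a very low array. The very low array is urothelium replicate 2, with the Gapdh 3′ to 5′ ratio of 55.3. Its actin ratio of 5.43 was near the low end of the 5.07 to 13.5 over the 11 arrays, so the controls differed. It was also the lowest urothelium array for Irx1, Irx3, Pou3f3, Emx1 and Umod, and the highest for Irx5. The part of RNA quality in these values was not tested. The difference in collecting duct against the mean of the others was 2.89 ± 1.23 (SE, n = 2 against 9; limma adjusted p = 0.318), with a 95% confidence interval from 0.24 to 5.55. In muscle it was -3.10 ± 1.07 (n = 3 against 8; limma adjusted p = 0.0707), with an interval from -5.41 to -0.78. In proximal tubule it was 0.11 ± 1.07 (limma adjusted p = 0.959), and its sign depended on the setting.

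Between collecting duct and muscle the difference was 4.49 ± 1.44 and was not called (limma adjusted p = 0.0777), although the arrays did not overlap. In label batch 4, which holds 1 array of each, it was 4.83. Single arrays moved these values across the threshold. Without urothelium replicate 2 the muscle difference was -3.58 (limma adjusted p = 0.015), without proximal tubule replicate 1 it was -3.44 (limma adjusted p = 0.0408), and without the arrays of label batch 2 it was -3.26 (limma adjusted p = 0.0413). Without urothelium replicate 1 or 2 the difference between collecting duct and muscle stayed at 4.49 and passed (limma adjusted p = 0.0223 and 0.0289). The second Slc12a1 probe set stayed at 6.27 to 7.56, above the median on none of the arrays.

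Umod was high in 2 arrays of different tissues. Its brighter probe set measured 8.35, 8.86 and 9.78 in proximal tubule, against 11.49, 6.83 and 8.03 in urothelium, 7.86 and 8.94 in collecting duct and 11.11, 7.36 and 7.84 in smooth muscle. The 2 highest values were urothelium replicate 1 and smooth muscle replicate 1, which are the 2 arrays of label batch 2, and whether the batch has a part in this was not tested. The second Umod probe set gave the same order of the top arrays, with 10.39 in urothelium replicate 1, 10.04 in smooth muscle replicate 1 and 9.46 in proximal tubule replicate 3, and the probe sets had a Pearson r of 0.96 over 11 arrays.

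Umod was not called in any comparison, and its standard errors of 0.91 to 1.22 left wide intervals. The proximal tubule difference was 0.35, with a 95% confidence interval from -1.61 to 2.30 (limma adjusted p = 0.845). Without the 2 arrays of label batch 2 it was 1.19 (limma adjusted p = 0.1). The muscle difference was 0.04, and -0.67 without those arrays (limma adjusted p = 0.984 and 0.508).

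**Figure D5:**
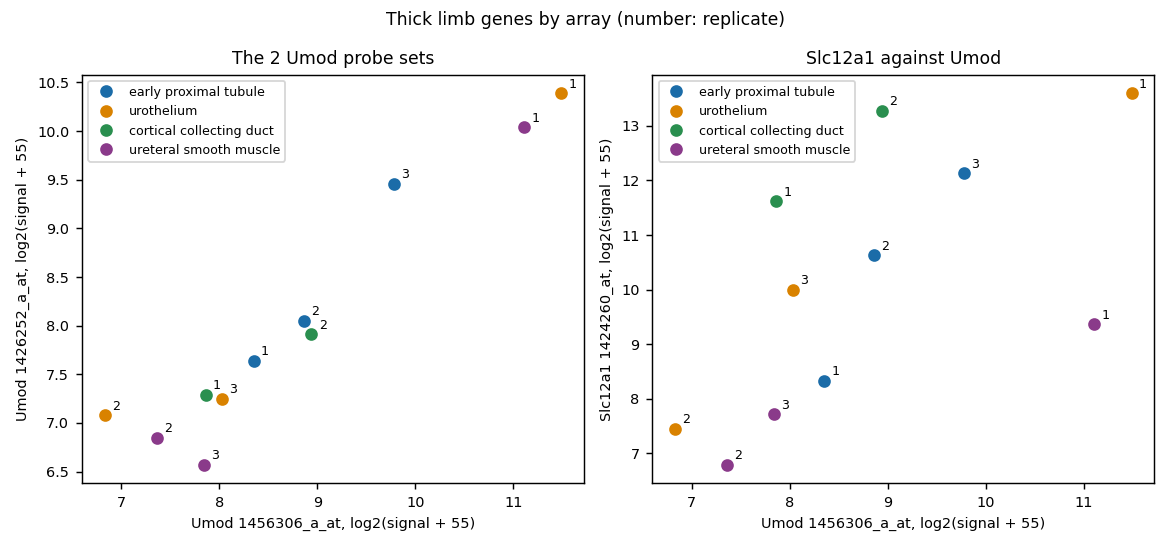
Thick limb genes array by array. Both axes are log2(signal + 55), and numbers are replicates; in the left panel the 2 Umod probe sets rise together, and in the right panel urothelium replicate 1 is high for both Umod and Slc12a1 while smooth muscle replicate 1 is high for Umod with Slc12a1 at 9.37.

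The promoters of Slc12a1 and Umod are shown because both genes serve the thick ascending limb. Capitals mark CCAAT boxes, TGGGAA and, in Umod, the half-site of HNF1 factors (GTTAAT), from the same search and the same kind of window.
Slc12a1, chr2:125152350-125152599, plus strand: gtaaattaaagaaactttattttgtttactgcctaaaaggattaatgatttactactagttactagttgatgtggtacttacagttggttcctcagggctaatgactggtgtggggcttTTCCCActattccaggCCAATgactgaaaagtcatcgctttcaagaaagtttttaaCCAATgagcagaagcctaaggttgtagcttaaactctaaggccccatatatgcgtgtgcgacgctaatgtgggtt
Umod, chr7:119479263-119479512, minus strand: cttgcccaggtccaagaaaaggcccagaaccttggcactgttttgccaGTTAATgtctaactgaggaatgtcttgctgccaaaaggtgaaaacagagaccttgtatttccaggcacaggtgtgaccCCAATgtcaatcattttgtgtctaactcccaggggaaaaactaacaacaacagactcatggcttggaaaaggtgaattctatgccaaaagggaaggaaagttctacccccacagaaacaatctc
Slc12a1 had CCAAT boxes at 115 and 75 bases before the start and TGGGAA on the opposite strand at 131 bases. Umod had GTTAAT at 202 bases, a match that 6.43% of all windows hold, and a CCAAT box at 124 bases. Neither window held TATAAA or ATTTGCAT. Of the 7 members with a promoter in the table, 5 had a CCAAT box and 4 had TGGGAA.

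Slc12a3 was dim throughout. Its brighter probe set measured 7.56, 8.43 and 6.39 in smooth muscle, against 6.41, 6.63 and 6.95 in proximal tubule, 6.21, 6.42 and 6.16 in urothelium and 6.40 and 6.12 in collecting duct. Smooth muscle replicates 1 and 2 were the highest, yet no value exceeded its array's median. With no filter limma gave a difference of 1.07 ± 0.39 in smooth muscle, which was not called (limma adjusted p = 0.109). Its other probe set lay at 5.96 to 6.95.

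Among the tested relatives, Pou3f1 was highest in smooth muscle and Irx4 in urothelium. The highest single values of Irx1 and Irx2 were both those of urothelium replicate 3, while Irx3 was highest in proximal tubule. By compartment mean, Irx1 was highest in proximal tubule (9.81, against 9.05 in urothelium). The mean of Irx2 was highest in collecting duct (8.65, against 8.52 in urothelium). Emx2 was called higher in proximal tubule like Emx1, but its pattern differed. Emx2 averaged 12.36 in proximal tubule and 12.52 in collecting duct, against 7.82 in muscle. Its proximal tubule call therefore includes the low muscle level on one side. Pou3f1, another POU class III gene, was called higher in smooth muscle by 5.31 ± 0.58 (limma adjusted p = 4.36e-05) and lower in proximal tubule by -3.49 ± 0.58 (limma adjusted p = 0.00107), and the proximal tubule call was lost with label batch as a block (-3.16, limma adjusted p = 0.0855). It measured 12.48, 11.89 and 13.80 in muscle, against 5.88, 5.83 and 6.64 in proximal tubule, 8.87, 11 and 8.23 in urothelium and 6.01 and 7.48 in collecting duct, so that Pou3f1 was highest where Pou3f3 was lowest. Emx2, a homeobox gene required for ureteric bud growth in mice, was lower in muscle by -4.24 ± 0.42 (limma adjusted p = 2.16e-05). It was higher in proximal tubule by 1.82 ± 0.42 (limma adjusted p = 0.00973) and in collecting duct by 2.03 ± 0.48 (limma adjusted p = 0.0493). Both of those were lost with label batch as a block (limma adjusted p = 0.189 and 0.352). The collecting duct call of Emx2 held in only 6 of 23 alternatives. It missed after quantile normalization and with no filter, for example (limma adjusted p = 0.0519 and 0.0636). Without collecting duct replicate 1 or 2 the difference was 2.24 and 1.82. Of the Iroquois genes Irx4 and Irx6, Irx6 did not pass the filter. Irx4 measured 8.53, 8.92 and 7.08 in urothelium, against 6.04 to 6.80 in the other 8 arrays. It was called higher in urothelium (1.91 ± 0.38, limma adjusted p = 0.0204). Only urothelium replicates 1 and 2 lay above their array's median, so Irx4 passed the filter through the group where it is high. The call therefore adds no separate support. It was lost with label batch as a block, with pseudocount 190 and with trend and robust options (limma adjusted p = 0.49, 0.0658 and 0.0768).

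Other nephron patterning genes divided in proximal tubule. Of 33 listed factors of the S-shaped body 27 were tested, and 7 were called higher, 3 lower and 17 not called against the mean of the other compartments, set against 9.53% and 6.41% of all genes. Hnf4a, a master regulator of proximal tubule differentiation, was higher by 5.39, Cdh6 by 4.09, Dll1 by 3.23, Hnf4g by 2.69 and Pax8 by 2.09 (limma adjusted p from 0.000234 to 0.00374). Sox9 was lower by -2.09 (limma adjusted p = 0.00139). The Hnf4a probe set is of the s type, whose probes can match several transcripts, and without the x, s and a types Hnf4a was read from another probe set, with a difference of 0.67 (limma adjusted p = 0.222). Hnf4g averaged 9.35 in proximal tubule and 6.66 over the other compartments. It is therefore likely to have passed the filter through the group where it is high, and its call adds no separate support. Cdh6, Dll1 and Hnf4g lost their calls with label batch as a block (limma adjusted p = 0.26, 0.123 and 0.142). The median was 0.56 over the list and 0.05 over all genes. In smooth muscle 0 of the 27 were called higher and 11 lower, against 6.05% and 9.12% of all genes, among them Wnt4 (-3.55), Tfap2b (-3.21) and Dkk1 (-2.95), with a list median of -1.08. In collecting duct Mecom (3.35) and Tfap2a (3.07) were called higher, against 1.42% of all genes, and in urothelium Wnt4 (2.99) and Bmp2 (2.89), against 2.37% called either way. All 4 calls were lost with label batch as a block (limma adjusted p = 0.232, 0.0984, 0.298 and 0.274). Mecom and Tfap2a were also lost without either collecting duct array (limma adjusted p from 0.0829 to 0.265), and Wnt4 and Bmp2 without urothelium replicate 2 (limma adjusted p = 0.0521 and 0.158). Bmp2 also missed without the other arrays left out singly, except collecting duct replicate 2, proximal tubule replicate 3, smooth muscle replicate 3 and urothelium replicate 1 (limma adjusted p from 0.0582 to 0.118).

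Of 23 other listed genes of the thick ascending limb 15 were tested, and in proximal tubule 1 was called higher, 2 lower and 12 not called, against 9.53% of all genes called higher and 6.41% lower, with a median of 0.16. The claudin Cldn10 was higher by 3.26 ± 0.40 (limma adjusted p = 0.000131), and Ckb and the kinase gene Stk39 were lower by -2.03 and -1.75 (limma adjusted p = 0.0105 and 0.0383). Each of these was read from a probe set of the s or a type and dropped out of the fit without those types. With label batch as a block Cldn10 missed the threshold (2.73, limma adjusted p = 0.0579), as did Ckb and Stk39 (limma adjusted p = 0.226 and 0.269). Ckb was also lost without proximal tubule replicate 2 (limma adjusted p = 0.0841), and Stk39 without proximal tubule replicate 1 or 3 (limma adjusted p = 0.184 and 0.145) and without 5 of the arrays of other compartments (limma adjusted p from 0.0515 to 0.0911). In collecting duct limma called 0 of the 15, against 278 of all 13614 genes called either way. The median was 0.49 over the list and -0.03 over all genes. An unadjusted p under 0.05 was found for 5 of the 15, a count given without its share over all genes. In muscle 1 was called higher and 4 lower, against 6.05% and 9.12% of all genes, with Sorl1 at -3.74 and Cldn16, a magnesium pathway claudin, at -1.56. The Cldn16 call was lost with label batch as a block (limma adjusted p = 0.145) and without smooth muscle replicate 1 or 2 (limma adjusted p = 0.0972 and 0.0589). Kcnj1, the potassium channel ROMK, measured 6.17, 8.95 and 9.07 in proximal tubule, 10.73, 6.16 and 6.38 in urothelium, 7.84 and 9.91 in collecting duct and 8.62, 6.24 and 6.38 in muscle. Its highest array was urothelium replicate 1, as for Slc12a1 and Umod, and its r with Slc12a1 over the 11 arrays was 0.887.

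Of 22 listed genes of the distal convoluted and connecting tubule 18 were tested, and in proximal tubule 7 were called higher, 3 lower and 8 not called, against 9.53% and 6.41% of all genes, with a median of 0.55. The sodium pump subunit gene Fxyd2 was higher by 5.65, Kl, which encodes the FGF23 coreceptor Klotho, by 4.58, the potassium channel gene Kcnj16 by 3.22 and Sostdc1 by 2.50 (limma adjusted p from 1.08e-05 to 0.00081). The exchanger gene Slc8a1 was lower by -3.41 and the monocarboxylate carrier gene Slc16a7 by -3.72 (limma adjusted p = 2.92e-05 and 0.00294). Sostdc1 and Slc16a7 lost their calls with label batch as a block (limma adjusted p = 0.0901 and 0.108). In collecting duct 5 were called higher and 0 lower, where 1.42% of all genes were called higher, among them Slc8a1 (3.0), Kcnj16 (2.73) and Kcnj10 (2.31). These 3 were lost with label batch as a block (limma adjusted p = 0.106, 0.196 and 0.185) and without collecting duct replicate 1 (limma adjusted p = 0.108, 0.241 and 0.261), and Kcnj16 and Kcnj10 were lost without collecting duct replicate 2 too (limma adjusted p = 0.126 and 0.0514). In muscle 3 were called higher and 8 lower, against 6.05% and 9.12% of all genes, with Kcnj16 at -5.42 and the kinase gene Wnk4 at -2.48. Kcnj16 averaged 13.30 in proximal tubule and 12.94 in collecting duct, against 6.83 in muscle. Its calls in proximal tubule and collecting duct therefore both include the low muscle level. In urothelium 1 was called lower, against 2.37% of all genes called either way, which was Kl at -2.77, lost with label batch as a block (limma adjusted p = 0.129).

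Of 7 other listed genes of the Slc12 family 5 were tested. In proximal tubule Slc12a7, a potassium and chloride cotransporter, was higher by 2.28 ± 0.34 (limma adjusted p = 0.000553). Slc12a2, the widely expressed relative of Slc12a1, was lower by -1.38 ± 0.36 (limma adjusted p = 0.0201). The other 3 were not called there. In muscle Slc12a7 was lower by -1.33 ± 0.34 (limma adjusted p = 0.0183). Slc12a7 missed in both with label batch as a block (limma adjusted p = 0.0585 in proximal tubule and 0.126 in muscle), and the muscle call was also lost without smooth muscle replicate 1 or 2 (limma adjusted p = 0.056 and 0.0861). The Slc12a2 call was lost without any one of the 3 proximal tubule arrays (limma adjusted p from 0.051 to 0.0832).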

How the data were processed

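The deposited values were 1 intensity per probe set on a linear scale. GCOS, the maker's array software, produced them, per the submitters' processing notes, and its version is not given in the sources used here. Every array had the same mean of 1500 after trimming 2% at each end, so the authors' scaling was kept. Compartments came from the labels, and replicate numbers are accession order and pair nothing.

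Signals were taken to log2(signal + 55), 55 being about the 20th percentile of the table. Probe sets above their array's median in at least 2 arrays were kept (29565). A gene was read from its probe set with the highest mean, using GEO's platform annotation, and probe sets with several symbols were left out. One limma fit (limma 3.58.1, R 4.3.3; 7 residual and 6.38 prior degrees of freedom) over 11 arrays gave every comparison, with genes called as stated in the report. Promoters came from RefSeq (GRCm38.p6; 7 members matched). The procedure was tested on simulated data. Plots used Python 3.11.15, pandas 2.3.3 and matplotlib 3.10.9.

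The members, lists, tests and alternatives were chosen with earlier results of these data known. The named genes were all members, the called list genes (at most 6 a list in proximal tubule and 3 elsewhere, by moderated t), the 3 genes most like each member and the neighbouring genes. Kcnj1 and the genes quoted for urothelium replicate 3 were picked after their values were seen. Alternatives left out single arrays or label batch 2, put label batch in the fit as a block (fixed or random), and used quantile normalization, a pseudocount of 12 or 190, no filter or one at the 75th percentile, other choices of probe set, and eBayes with trend and robust set.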

Additional observations from a re-analysis of the deposited data

How the results depend on the processing

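Of the 14 called member differences, the 4 of Pou3f3 against smooth muscle held under all 23 alternatives, and all 14 kept their sign under every alternative that could be fitted. The filter at the 75th percentile removed Irx1, Irx2, Irx5 and Emx1, and a fit without the x, s and a probe set types removed Umod. Of the named list genes, that filter also removed Kcnj10, Sox9, Hnf4g, Cldn16 and Irx4, and the fit without those types removed Cldn10, Ckb, Stk39 and Fxyd2. Label batch as a fixed block left 0 members called in collecting duct, 0 in proximal tubule and 1 in smooth muscle, and in pairs 1 between proximal tubule and muscle and 0 between proximal tubule and urothelium. The random block had a correlation of 0.0268. Between proximal tubule and collecting duct 1 member was called with pseudocount 190, the 75th percentile filter or trend and robust options. Between proximal tubule and muscle 2 were called with that filter. Between proximal tubule and urothelium 2 were called with pseudocount 190 or trend and robust options, and 0 without label batch 2. Between collecting duct and muscle 2 were called with pseudocount 190 and without label batch 2. With single arrays left out the members called were 1 to 4 in proximal tubule, 0 to 1 in collecting duct and 1 to 4 in smooth muscle. In pairs they were 0 to 1 for proximal tubule and collecting duct, 3 to 4 for proximal tubule and muscle, 0 to 2 for proximal tubule and urothelium, 1 to 2 for urothelium and muscle and 1 to 2 for collecting duct and muscle.

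The uncalled differences changed sign as follows, and the cause was not tested. Slc12a1 in proximal tubule was 0 after quantile normalization, -0.03 with pseudocount 190 and -0.33 with the block, and -0.77 to 1.13 without single arrays. Irx2 in proximal tubule was -0.09 without label batch 2, and -0.22 to 0.64 without single arrays. Umod was -0.05 to 0.80 in proximal tubule without single arrays. In smooth muscle Umod was -1.13 to 0.75 without single arrays, -0.11 as the mean of its probe sets, -0.47 with the block and -0.67 without label batch 2. Pou3f3 between proximal tubule and urothelium was -0.60 with the block. 

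The fixed block adds batch terms to a fit with 7 residual degrees of freedom, so fewer remain to estimate the spread. The standard error of Irx3 in proximal tubule rose from 0.50 to 0.75 with it, while that of Umod in smooth muscle fell from 0.91 to 0.49. Whether batch has a part in the lost calls was not tested. Over all genes, the block reduced the calls to 406 in proximal tubule (2169 without it), 0 in urothelium (322), 3 in collecting duct (278) and 951 in smooth muscle (2065). Among pairs it left 710 of 2771 for proximal tubule and muscle, 24 of 1560 for proximal tubule and urothelium, 0 of 35 for urothelium and collecting duct, 719 of 1084 for urothelium and muscle and 302 of 1126 for collecting duct and muscle, as counts and not as the same genes. Pseudocount 12 gave 202 in urothelium, 173 in collecting duct and 22 for urothelium and collecting duct, and pseudocount 190 gave 421 in collecting duct and 122 for that pair. The pair gave 58 with the 75th percentile filter and 67 with trend and robust options. Without label batch 2 the counts were 124 in urothelium, 1358 in smooth muscle, 1029 for proximal tubule and urothelium, 8 for urothelium and collecting duct and 660 for urothelium and muscle. Without single arrays they ran from 1206 to 2248 in proximal tubule, 98 to 397 in urothelium, 9 to 302 in collecting duct and 1394 to 2089 in smooth muscle. Of the 48 named list results, 15 held under every alternative, 30 were lost with the block and 0 changed sign. No paired analysis was possible because replicate numbers follow accession order; label batch, which links arrays of different compartments, was fitted as the block above. Dim probe sets cannot be told from background without detection calls.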

Other observations

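Genes of the descending and thin limbs showed no shared direction in proximal tubule. Of 8 listed 7 were tested, and 1 was called higher, 2 lower and 4 not called, against 9.53% of all genes called higher and 6.41% lower, with a median log2 fold change of 0.39 over the list and 0.05 over all genes. The water channel gene Aqp1, which marks both proximal tubule and descending limb, was higher in proximal tubule by 2.02 ± 0.49 (limma adjusted p = 0.0133) and in smooth muscle by 1.81 ± 0.49 (limma adjusted p = 0.023). It measured 10.17, 11.05 and 11.68 in proximal tubule, 9.95, 8.57 and 7.69 in urothelium, 6.58 and 8.02 in collecting duct and 10.58, 10.96 and 10.89 in smooth muscle. Aqp1 was thus lowest in collecting duct, with a difference of -2.87 ± 0.56 (limma adjusted p = 0.0187). Sptssb, a subunit of the enzyme that starts sphingolipid synthesis, was higher in urothelium by 5.42 ± 0.47 (limma adjusted p = 7.88e-05) and lower in proximal tubule by -3.14 ± 0.47 (limma adjusted p = 0.000495). The claudin Cldn4 was higher in urothelium by 2.12 ± 0.41 (limma adjusted p = 0.0157). The calls of Aqp1 in proximal tubule and collecting duct were lost with label batch as a block (limma adjusted p = 0.43 and 0.116), as were those of Sptssb in urothelium and proximal tubule (limma adjusted p = 0.119 and 0.0515) and of Cldn4 in urothelium (limma adjusted p = 0.594). The Aqp1 call in smooth muscle was lost without any one of its 3 arrays (limma adjusted p from 0.0579 to 0.0809), that in collecting duct without either of its arrays (limma adjusted p = 0.304 and 0.0735), and that in proximal tubule without its replicate 2 or 3 (limma adjusted p = 0.0612 and 0.0854). Cldn4 in urothelium was also lost without urothelium replicate 1 or 2 (limma adjusted p = 0.0986 and 0.0959).

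By Pearson correlation over the 11 arrays, the genes most like Irx3 were Sostdc1 (0.96), Zadh2 (0.956) and Tesk2 (0.952), and those most like Pou3f3 were Sel1l3 (0.988), Met (0.977) and Fuca2 (0.975). For Emx1 they were Prkcq (0.96), Hgd (0.954) and Slc25a34 (0.938), and for Irx1 Mlh3 (0.944), Atg16l2 (0.921) and Doc2a (0.92). For Irx5 they were Scyl3 (0.977), Gtf3c1 (0.952) and Atxn2l (0.945), and for Irx2 Cbln4 (0.86), H2-D1 (0.849) and Garem2 (0.823). For Umod they were Pgs1 (0.933), Camsap1 (0.914) and Rsph9 (0.9), and for Slc12a1 Pigx (0.892), Kcnj1 (0.887) and Madd (0.886). These values describe 11 arrays that share compartments, picked as the highest among 13614 genes. Of the genes next to the members on their chromosomes, Sfxn5 beside Emx1, Gp2 beside Umod and Ctxn2 beside Slc12a1 were tested, and limma called none of these 3 in any compartment against the others. The limma fit gave Sfxn5 in proximal tubule and Gp2 in urothelium an unadjusted p under 0.05, and Ctxn2 in no compartment.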
